A study of Mus musculus with 10 samples.

Results

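The cell cycle and DNA replication genes described here are 40 protein-coding genes chosen by symbol from the deposited count table, which holds 18603 genes. All 40 were present in the table and all 40 were tested. By role, 17 are replication genes of the G1/S transition, 5 are the D-type cyclins with their kinases, and 18 act in G2 and mitosis. RNA sequencing measured them in 10 tumours that the mouse renal carcinoma line RENCA formed under the skin of female Balb/c mice. The 5 control mice received PBS into the tumour. The 5 treated mice received SLR14, a triphosphorylated RNA ligand of the viral RNA sensor RIG-I, carried by lipid nanoparticles in 50 µL of PBS. Injections began at a tumour size of 100 to 150 mm3 and were given 3 times, 48 h apart, and tumours were taken 24 h after the last. The control carried no lipid particle, so RNA and carrier cannot be told apart, and all tumours came from 1 cell line at a site outside the kidney. The age of the mice is not given in the sources used here.

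Cells enter division when D-type cyclins with Cdk4 or Cdk6, and then cyclin E with Cdk2, release E2F transcription factors from the retinoblastoma protein. E2F factors switch on the replication genes, whose products load the MCM helicase at origins, make deoxynucleotides and copy DNA. A later wave, held back by the DREAM complex in resting cells and driven by B-MYB and FOXM1, acts through CHR and CCAAT elements. It supplies the cyclins, kinases and motor proteins of mitosis. In growing tumours, transcripts of both waves are widely used as a measure of proliferation.

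The division into replication and mitotic genes could be seen in the promoter sequences. RefSeq promoter windows (build GRCm38.p6, 250 bases before to 50 after an annotated start) were matched by symbol for 32 of the 40 genes, in 34 windows. The 8 genes without an entry were Aurkb, Ccna2, Ccnd1, Ccnd2, Ccne2, Foxm1, Gins2 and Mcm4. Windows were searched on both strands for E2F-type letters, which were TTCCCGC and its variant TTCGCGC as well as the form TTGCCGC and its variant TTGGCGC, for CHR letters (TTTGAA or TTCGAA) and for CCAAT. E2F-type letters were present in 10 of 15 windows of G1/S genes, or 66.7%, in 3 of 15 windows of G2/M genes, and in 9.57% of all 32851 windows in the table. CHR letters had the opposite pattern, with 12 of 15 windows of G2/M genes (80.0%), 2 of 15 of G1/S genes, and 19.2% of all windows. CCAAT was present in 14 of 15 G2/M windows and 10 of 15 G1/S windows, against 37.4% of all windows. No E2F-type match overlapped a CHR match, and 2 of the 34 windows held an E2F-type match that shared bases with a CCAAT match. These matches describe letters, not binding. The 250 bases before the start are shown for a pair of replication genes and 3 mitotic genes that hold such matches, chosen after the matches were seen, with all E2F-type, CHR and CCAAT matches in capitals.
Mcm6 (a helicase subunit; chr1:128359706-128359955, minus strand): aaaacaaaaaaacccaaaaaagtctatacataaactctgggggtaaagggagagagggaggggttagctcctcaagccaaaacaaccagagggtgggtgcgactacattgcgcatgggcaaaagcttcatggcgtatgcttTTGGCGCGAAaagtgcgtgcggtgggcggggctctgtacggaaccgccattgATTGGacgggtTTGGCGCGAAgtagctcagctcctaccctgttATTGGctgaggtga
Rrm1 (the large subunit of ribonucleotide reductase; chr7:102441445-102441694, plus strand): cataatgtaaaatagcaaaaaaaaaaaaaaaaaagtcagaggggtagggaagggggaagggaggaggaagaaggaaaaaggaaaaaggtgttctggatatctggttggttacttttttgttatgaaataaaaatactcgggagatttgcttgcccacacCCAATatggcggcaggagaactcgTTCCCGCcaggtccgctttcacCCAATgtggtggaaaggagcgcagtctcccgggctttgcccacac
Mki67 (the Ki-67 protein of the chromosome surface; chr7:135716380-135716629, minus strand): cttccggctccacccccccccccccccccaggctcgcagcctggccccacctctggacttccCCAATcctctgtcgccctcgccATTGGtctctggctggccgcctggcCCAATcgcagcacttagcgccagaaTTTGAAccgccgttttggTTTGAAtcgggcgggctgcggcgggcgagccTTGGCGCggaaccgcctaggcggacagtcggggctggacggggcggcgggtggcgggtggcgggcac
Cdk1 (the mitotic kinase; chr10:69352913-69353162, minus strand): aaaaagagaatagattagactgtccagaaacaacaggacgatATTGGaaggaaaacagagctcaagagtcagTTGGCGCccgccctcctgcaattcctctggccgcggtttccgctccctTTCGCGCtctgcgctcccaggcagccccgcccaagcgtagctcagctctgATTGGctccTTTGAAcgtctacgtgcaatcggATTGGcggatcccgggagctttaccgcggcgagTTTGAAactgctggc
Cdc20 (the anaphase activator; chr4:118437344-118437593, minus strand): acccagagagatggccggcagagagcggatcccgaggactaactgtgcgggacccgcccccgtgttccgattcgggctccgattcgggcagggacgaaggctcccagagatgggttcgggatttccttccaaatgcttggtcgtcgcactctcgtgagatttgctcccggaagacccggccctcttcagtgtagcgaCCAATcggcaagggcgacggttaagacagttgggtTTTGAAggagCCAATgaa
Mcm6 and Rrm1 hold E2F-type and CCAAT matches but no CHR match before the start, and Cdc20 holds CHR and CCAAT matches but no E2F-type match. Mki67 and Cdk1 hold all of them.

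Total counts per tumour ranged from 17931895 to 39842608. Levels are given as CPM, the counts of a gene scaled to library size by TMM. The labelled origin was visible in the epithelial keratins Krt8 (1415 ± 189.9 CPM in PBS tumours, SD, n = 5) and Krt18 (848 ± 89.6 CPM) and in the renal transcription factor Pax8 (92.2 ± 16.7 CPM), whereas the epithelial adhesion gene Epcam was at 3.45 ± 1.62 CPM and the kidney progenitor gene Lhx1 at 0.307 ± 0.136 CPM. Markers of other cell types varied between tumours, and erythroid and muscle genes set 3 tumours apart. In PBS 5 the summed level of 6 erythroid marker genes was 173 CPM, against 54.3 to 63.9 CPM in the other controls, and in SLR14 4 it was 98.3 CPM, against 20.9 to 43.2 CPM in the other treated tumours. In SLR14 2 the summed level of 11 skeletal muscle marker genes was 3.15 CPM, against 121 to 271 CPM in the other treated tumours. The summed level of 6 fibroblast marker genes was lowest in PBS 5 and SLR14 2, at 811 and 436 CPM. It was 1081 to 3313 CPM in the other controls and 1035 to 1505 CPM in the other treated tumours. For the 40 genes, fold changes that turn sign or move by more than 1.5 times without PBS 5 are given with and without it. Single genes of other lists are given with all tumours only.

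After SLR14, none of the 40 genes passed edgeR's quasi-likelihood test at an adjusted p of 0.05, whereas 0.963% of all 15883 tested genes passed, 0.674% higher and 0.29% lower. The smallest adjusted p among the 40 was 0.0712, for the D-type cyclin Ccnd2. DESeq2 called 2 of the 40, Ccnd2 and Ccnd3, against 2.19% of the genes it tested, and limma voom called 0 against 0.913%. At an unadjusted p under 0.05 edgeR gave 6 of the 40, or 15.0%, against 10.8% of all tested genes. These were Cdt1, Cdc6, Mcm4, Ccnd2 and Ccnd3 on the higher side and Ccnb1 on the lower side. In 3 genes, Ccnd2, Ccnd3 and Mcm4, every SLR14 tumour was above every PBS tumour, as in 1.92% of all tested genes. No gene of the 40 had every SLR14 tumour below every PBS tumour, against 1.32% of all tested genes. Of the 40, 39 had a log2 fold change between -0.50 and 0.50 and 32 between -0.25 and 0.25. The lowest mean level over the 10 tumours was 14.3 CPM, so these genes were far above the low-count filter. In whole tumours, a difference in the number of dividing cells and a difference in transcript per cell cannot be told apart.

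**Figure D1:**
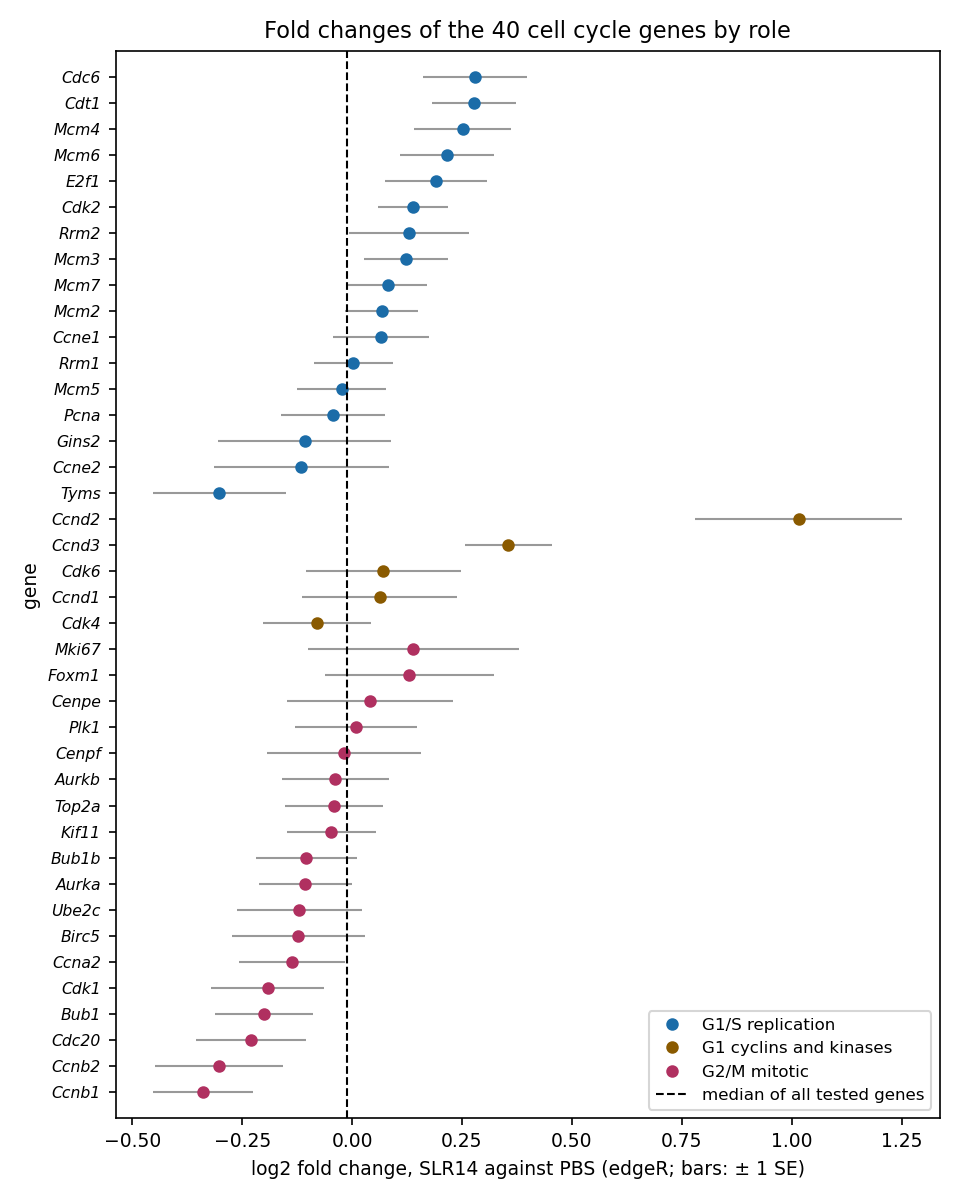
Log2 fold change of each of the 40 genes, SLR14 against PBS (horizontal axis, edgeR, bars ± 1 SE), grouped by role, with the median of all 15883 tested genes as a dashed line. G1/S replication genes lie mostly to the right of 0 and G2/M genes mostly to the left, and Ccnd2 at 1.02 is the only gene beyond 0.50.

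The medians of the replication and mitotic genes had opposite signs and were small. The 17 G1/S genes had a median log2 fold change of 0.08, with 12 positive and 5 negative values between -0.30 and 0.28. The 18 G2/M genes had a median of -0.11, with 4 positive and 14 negative values between -0.34 and 0.14. Over all tested genes the median was -0.01 and 48.0% of values were positive, and over the 8942 genes at least as abundant as the lowest of the 40 the median was 0.02 and 53.7% were positive. The difference of the medians, G2/M minus G1/S, was -0.19. Leaving out single tumours moved both medians. Without PBS 3 the G2/M median was -0.03, with 11 negative and 7 positive values, and the difference of the medians was -0.11. Without SLR14 2 the G2/M median was -0.05, also with 11 negative values, and without SLR14 3 the G1/S median was 0.04, with 11 positive values. Without PBS 5, 15 of 17 G1/S values were positive (median 0.11) and 18 of 18 G2/M values were negative (median -0.12). Without both PBS 5 and SLR14 2, 16 of 17 G1/S values were positive (median 0.13) and 14 of 18 G2/M values negative (median -0.08). The shares of positive values over all genes are for the fit with all tumours, and none is given for these smaller fits. Of 6 fibroblast marker genes, all had a negative log2 fold change. An unadjusted edgeR p under 0.05 was found for 3 of the 6, against 10.8% of all tested genes in either direction. The summed levels of the 6 were 811 to 3313 CPM in PBS and 436 to 1505 CPM in SLR14 tumours. The part of other cell types in these differences was not tested.

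In single tumours the groups overlapped in both means. The mean log2(CPM + 1) of the 17 G1/S genes averaged 7.08 ± 0.0805 over the controls and 7.16 ± 0.0669 over the treated tumours (SD, n = 5), a difference of 0.0847 beside a pooled SD of 0.0740. For the 18 G2/M genes it was 6.44 ± 0.155 in PBS and 6.36 ± 0.179 in SLR14 tumours, a difference of -0.0804 beside a pooled SD of 0.168. The G2/M mean minus the G1/S mean was -0.539, -0.742, -0.376, -0.674 and -0.866 in PBS tumours 1 to 5. It was -0.811, -0.919, -0.810, -0.897 and -0.586 in SLR14 tumours 1 to 5. Of the treated tumours, 4 lay below each control other than PBS 5, and SLR14 5, with the highest mitotic level of its group, lay among the controls. The group means of this measure differed by -0.165, beside a pooled SD of 0.163. These scores were given no test, since the genes were chosen with earlier results of these data known.

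**Figure D2:**
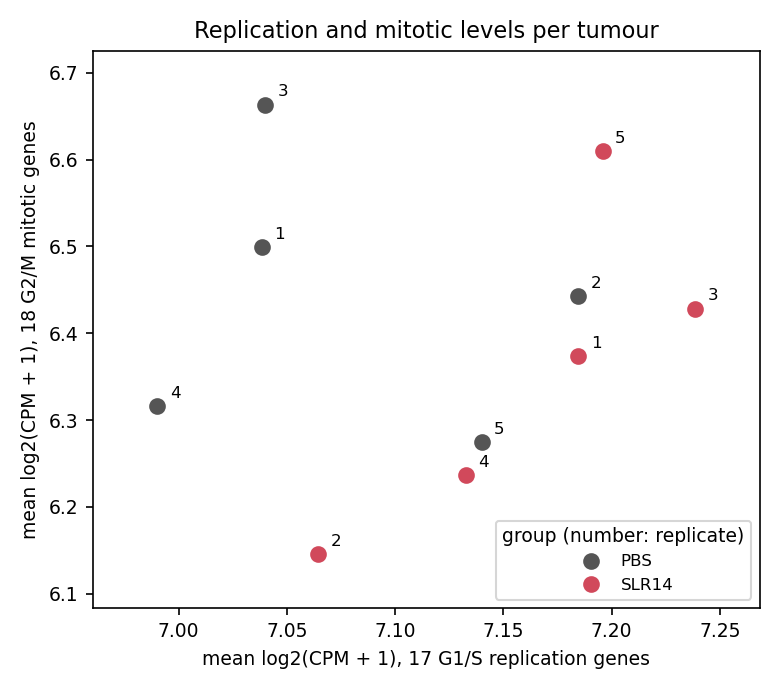
Mean log2(CPM + 1) of the 17 G1/S replication genes (horizontal axis) and of the 18 G2/M mitotic genes (vertical axis) in each tumour, coloured by group and numbered by replicate. The G1/S means lie between 6.99 and 7.24 and the G2/M means between 6.15 and 6.66, and the groups overlap on both axes.

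Ccnd2 (ENSMUSG00000000184), the D-type cyclin that is prominent in lymphocytes and other blood cells, had the largest difference of the 40. It was at 8.01, 8.66, 12.1, 12.5 and 6.04 CPM in PBS tumours 1 to 5 and at 27.4, 12.9, 23.9, 16.1 and 15.4 CPM in SLR14 tumours 1 to 5. All treated tumours lay above all controls, though SLR14 2 exceeded PBS 4 by less than 1 CPM. The means were 9.47 ± 2.78 and 19.1 ± 6.21 CPM (SD, n = 5), and the log2 fold change was 1.02 (SE 0.24, edgeR adjusted p = 0.0712). Ccnd2 passed in DESeq2 (adjusted p = 0.00301), in limma voom with sample weights (adjusted p = 0.0154), and in edgeR without SLR14 2 (adjusted p = 0.0479) and without both SLR14 2 and PBS 5 (adjusted p = 0.0351). SLR14 2 was its lowest treated tumour. In the other 16 of 20 alternatives Ccnd2 did not pass, such as edgeR without PBS 1 (adjusted p = 0.165) or with the replicate block (adjusted p = 0.0818). Of 10 leukocyte marker genes listed, 7 were tested, of which edgeR called 0, DESeq2 2 and limma voom 1. An unadjusted edgeR p under 0.05 was found for 3, all higher, against 10.8% of all tested genes in either direction. The summed levels of the 7 were 376 to 582 CPM in PBS and 458 to 552 CPM in SLR14 tumours. Most of the sum came from Csf1r (312 and 292 CPM on average) and Adgre1 (101 and 106 CPM). Among them the pan-leukocyte gene Ptprc was at 79.4 ± 8.09 and 76.4 ± 5.31 CPM, and the T cell gene Cd3e at 0.183 ± 0.226 and 1.15 ± 0.531 CPM (SD, n = 5; edgeR adjusted p = 0.0791, DESeq2 adjusted p = 0.00283), with PBS 1 at 0. The other T cell genes listed went in opposite directions. Cd8a was at 0.240 ± 0.203 and 1.10 ± 0.715 CPM (log2 fold change 2.15, edgeR adjusted p = 0.111). The more abundant Cd4 was at 9.56 ± 3.74 and 6.41 ± 2.33 CPM (log2 fold change -0.58, edgeR adjusted p = 0.483). The part of blood cells in the Ccnd2 difference was not tested.

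Ccnd3 (ENSMUSG00000034165), a close relative, was the other gene called by DESeq2 (adjusted p = 0.0448). It was at 105, 107, 107, 110.1 and 86.5 CPM in PBS tumours 1 to 5 and at 115, 140.2, 125, 150.1 and 131 CPM in SLR14 tumours 1 to 5. The groups did not overlap, and PBS 5 was the low control. The log2 fold change was 0.36 (SE 0.10, edgeR adjusted p = 0.153). Ccnd1 (ENSMUSG00000070348), the D-type cyclin of most epithelial tumours, was at 243, 228, 315, 173 and 218 CPM in PBS and at 306, 181, 307, 208 and 227 CPM in SLR14 tumours 1 to 5. Its groups overlapped widely (log2 fold change 0.06, SE 0.18, edgeR adjusted p = 0.904). Its fold change without PBS 5 was 0.032 on the log2 scale. Per kilobase of the longest annotated coding transcript, Ccnd1 was at 63.0 CPM, Ccnd3 at 48.8 CPM and Ccnd2 at 1.497 CPM in PBS tumours, so that Ccnd2 was the least abundant D-type cyclin in either group (3.02 CPM per kilobase after SLR14).

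The kinases of the D-type cyclins had no difference beyond their spread. Cdk4 (ENSMUSG00000006728) was at 361, 377, 412, 400.4 and 571 CPM in PBS tumours 1 to 5 and at 397, 414, 415, 394 and 386 CPM in SLR14 tumours 1 to 5. Cdk6 (ENSMUSG00000040274) was at 243, 211, 207, 228 and 106 CPM in PBS and at 203, 213, 226, 192 and 211 CPM in SLR14 tumours. In both, 9 tumours were close together and PBS 5 stood apart, above the rest for Cdk4 and below it for Cdk6. The log2 fold changes were -0.08 for Cdk4 (SE 0.12, edgeR adjusted p = 0.807) and 0.07 for Cdk6 (SE 0.18, edgeR adjusted p = 0.889). Without PBS 5 both turned sign, to 0.046 for Cdk4 and -0.094 for Cdk6.

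**Figure D3:**
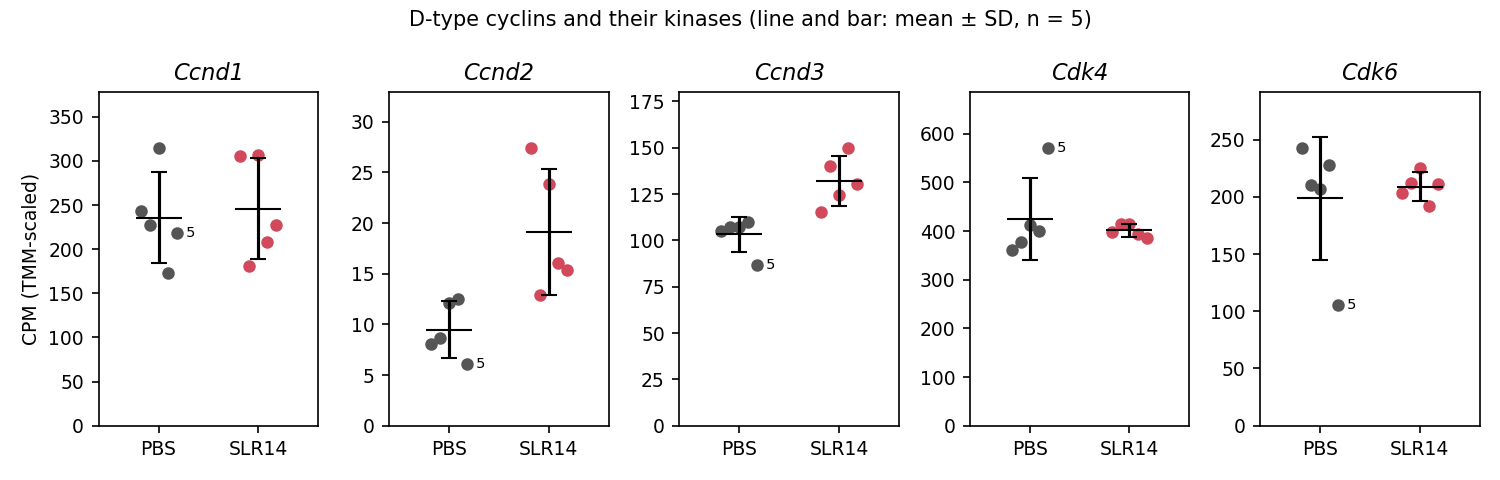
CPM of the D-type cyclins and of Cdk4 and Cdk6 in the 5 PBS and 5 SLR14 tumours (points; line and bar, mean ± SD), with PBS 5 marked 5. The groups do not overlap for Ccnd2 and Ccnd3, and PBS 5 lies apart from the other controls for Ccnd3, Cdk4 and Cdk6.

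Among the replication genes the lowest p-values belonged to the licensing factors Cdt1 and Cdc6, which load the MCM helicase at origins in G1. Cdt1 (ENSMUSG00000006585) was at 94.3, 104, 107, 111 and 86.8 CPM in PBS tumours 1 to 5 and at 107, 123, 119, 126 and 134 CPM in SLR14 tumours 1 to 5. Cdc6 (ENSMUSG00000017499) was at 47.4, 52.1, 49.5, 38.6 and 35.2 CPM in PBS and at 54.4, 47.0, 61.2, 55.1 and 52.5 CPM in SLR14 tumours. For Cdt1 only SLR14 1 and for Cdc6 only SLR14 2 lay within the range of the controls. The log2 fold change was 0.28 for each (SE 0.10 for Cdt1 and 0.12 for Cdc6), and neither passed (edgeR adjusted p = 0.292 and 0.422).

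The 6 MCM genes encode the replicative helicase, a ring of 1 subunit each. Their log2 fold changes were 0.07 for Mcm2, 0.12 for Mcm3, 0.25 for Mcm4, -0.02 for Mcm5, 0.22 for Mcm6 and 0.08 for Mcm7 (edgeR adjusted p 0.436 to 0.939). Mcm4 was at 359.5, 375, 332, 347 and 252 CPM in PBS tumours 1 to 5 and at 387, 385, 392, 399 and 418 CPM in SLR14 tumours 1 to 5. Its groups did not overlap, PBS 5 was the low control, and the difference did not pass (SE 0.11, edgeR adjusted p = 0.436). Mcm5 (ENSMUSG00000005410) was at 178, 212, 218, 179 and 228 CPM in PBS tumours 1 to 5 and at 208, 183, 218, 186 and 203 CPM in SLR14 tumours 1 to 5. The subunits differed among themselves in PBS 5, which was the lowest control for Mcm2, Mcm3, Mcm4 and Mcm6 and the highest for Mcm5. Without PBS 5 the log2 fold changes were 0.033 for Mcm2, 0.055 for Mcm3, 0.16 for Mcm4, 0.017 for Mcm5, 0.14 for Mcm6 and 0.084 for Mcm7.

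Pcna (ENSMUSG00000027342), the sliding clamp of DNA polymerase, was at 603, 669.8, 509, 564 and 796 CPM in PBS tumours 1 to 5 and at 607, 588, 639, 623 and 591 CPM in SLR14 tumours 1 to 5. The treated tumours lay within the range of the controls (log2 fold change -0.04, SE 0.12, edgeR adjusted p = 0.901). Without PBS 5 the Pcna value was 0.050. Rrm1 and Rrm2, the subunits of ribonucleotide reductase, had log2 fold changes of 0.00 and 0.13, and Rrm2 ranged from 183 to 301 CPM among SLR14 tumours. Without PBS 5 Rrm1 was at -0.0024, and the Rrm2 value ranged from 0.050 without SLR14 5 to 0.22 without SLR14 2. Gins2, part of the replicative helicase complex, had a log2 fold change of -0.11 (SE 0.20), which became 0.16 without PBS 5. Tyms, which makes thymidylate, had the lowest value of the replication genes at -0.30 (SE 0.15, edgeR adjusted p = 0.496), with PBS 5 at 73.3 CPM and the other controls at 37.8 to 52.1 CPM. Without PBS 5 the Tyms value was -0.15 (edgeR adjusted p = 0.653).

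The E-type cyclins, their kinase and E2f1, the activator of the replication genes, did not pass. Ccne1 (ENSMUSG00000002068) was at 45.1, 51.1, 43.9, 39.96 and 58.9 CPM in PBS and at 46.9, 45.001, 53.3, 51.8 and 53.0 CPM in SLR14 tumours 1 to 5 (log2 fold change 0.07, SE 0.11, edgeR adjusted p = 0.824). Ccne2 (ENSMUSG00000028212) was at 23.7, 28.8, 18.1, 19.5 and 41.9 CPM in PBS and at 29.9, 22.5, 24.8, 22.4 and 22.1 CPM in SLR14 tumours (log2 fold change -0.12, SE 0.20, edgeR adjusted p = 0.833). In both, PBS 5 was the highest of all 10 tumours, and without it the values were 0.15 for Ccne1 and 0.11 for Ccne2. Cdk2 had a log2 fold change of 0.14 (SE 0.08, edgeR adjusted p = 0.559). E2f1 (ENSMUSG00000027490) was at 97.6, 99.2, 79.1, 116 and 73.5 CPM in PBS tumours 1 to 5 and at 107, 109, 108, 102 and 105 CPM in SLR14 tumours 1 to 5 (log2 fold change 0.19, SE 0.12, edgeR adjusted p = 0.578). The treated tumours were closer together than the controls, with an SD of 2.73 against 17.04 CPM, a difference in spread that was not tested. Without PBS 5 the E2f1 value was 0.11.

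On the mitotic side the B-type cyclins, which activate Cdk1 at entry into mitosis, had the lowest fold changes. Ccnb1 (ENSMUSG00000041431) was at 68.1, 71.2, 79.5, 61.2 and 85.5 CPM in PBS tumours 1 to 5 and at 59.4, 52.4, 62.7, 48.7 and 65.4 CPM in SLR14 tumours 1 to 5. Ccnb2 (ENSMUSG00000032218) was at 53.5, 55.6, 75.7, 50.3 and 68.7 CPM in PBS and at 46.4, 42.2, 45.4, 45.2 and 66.7 CPM in SLR14 tumours. For Ccnb1 the SLR14 tumours 3 and 5 reached into the range of the controls, and for Ccnb2 SLR14 5 did so alone. The log2 fold changes were -0.34 for Ccnb1 (SE 0.11, edgeR adjusted p = 0.267) and -0.30 for Ccnb2 (SE 0.15, edgeR adjusted p = 0.481).

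Their kinase Cdk1 (ENSMUSG00000019942) was at 48.0, 52.0, 63.5, 45.6 and 66.1 CPM in PBS and at 51.1, 42.7, 48.5, 40.4 and 57.8 CPM in SLR14 tumours 1 to 5 (log2 fold change -0.19, SE 0.13, edgeR adjusted p = 0.607). The groups overlapped, and without PBS 5 the value was -0.12. Cyclin A2, encoded by Ccna2, had a log2 fold change of -0.14 (SE 0.12). Cdc20, which turns on the anaphase-promoting complex, had -0.23 (SE 0.13) and Ube2c, the ubiquitin-conjugating enzyme of that complex, -0.12 (SE 0.14). The spindle checkpoint kinases Bub1 and Bub1b had -0.20 and -0.10, the mitotic kinases Aurka, Aurkb and Plk1 had -0.11, -0.04 and 0.01, and Birc5, the survivin subunit of the Aurora B complex, had -0.12. Adjusted p-values of these 9 genes lay between 0.533 and 0.984 in edgeR. Without PBS 5 the values were -0.059 for Aurka, -0.095 for Plk1, -0.19 for Bub1b and -0.026 for Birc5, and without PBS 3 they were -0.064 for Ccna2, -0.061 for Aurka, 0.058 for Aurkb, -0.034 for Birc5 and 0.016 for Ube2c.

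Mki67 (ENSMUSG00000031004), the standard proliferation marker, had a fold change smaller than its SE, so a difference in either direction remains possible. It was at 462, 374, 379, 296 and 143 CPM in PBS tumours 1 to 5 and at 328, 301, 375, 351 and 468 CPM in SLR14 tumours 1 to 5. PBS 5 was the lowest of all 10 tumours, and the treated tumours lay among the other controls apart from SLR14 5 just above PBS 1. The log2 fold change was 0.14 (SE 0.24, edgeR adjusted p = 0.832) with all tumours and -0.06 (edgeR adjusted p = 0.919) without PBS 5. Without PBS 1 it was 0.29 and without SLR14 5 it was 0.031. Top2a (ENSMUSG00000020914), the topoisomerase that untangles sister chromatids, was at 495, 469, 451, 407 and 359.5 CPM in PBS and at 449, 392, 472, 367 and 442 CPM in SLR14 tumours 1 to 5 (log2 fold change -0.04, SE 0.11, edgeR adjusted p = 0.903). Again PBS 5 was lowest, and without it the value was -0.11. Foxm1, the transcription factor of the mitotic wave, had a log2 fold change of 0.13 (SE 0.19), the kinetochore genes Cenpe and Cenpf had 0.04 (SE 0.19) and -0.02 (SE 0.18), and the spindle motor Kif11 had -0.05 (SE 0.10). Without PBS 5, Foxm1 was at -0.032, Cenpe at -0.11, Cenpf at -0.15 and Kif11 at -0.080.

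**Figure D4:**
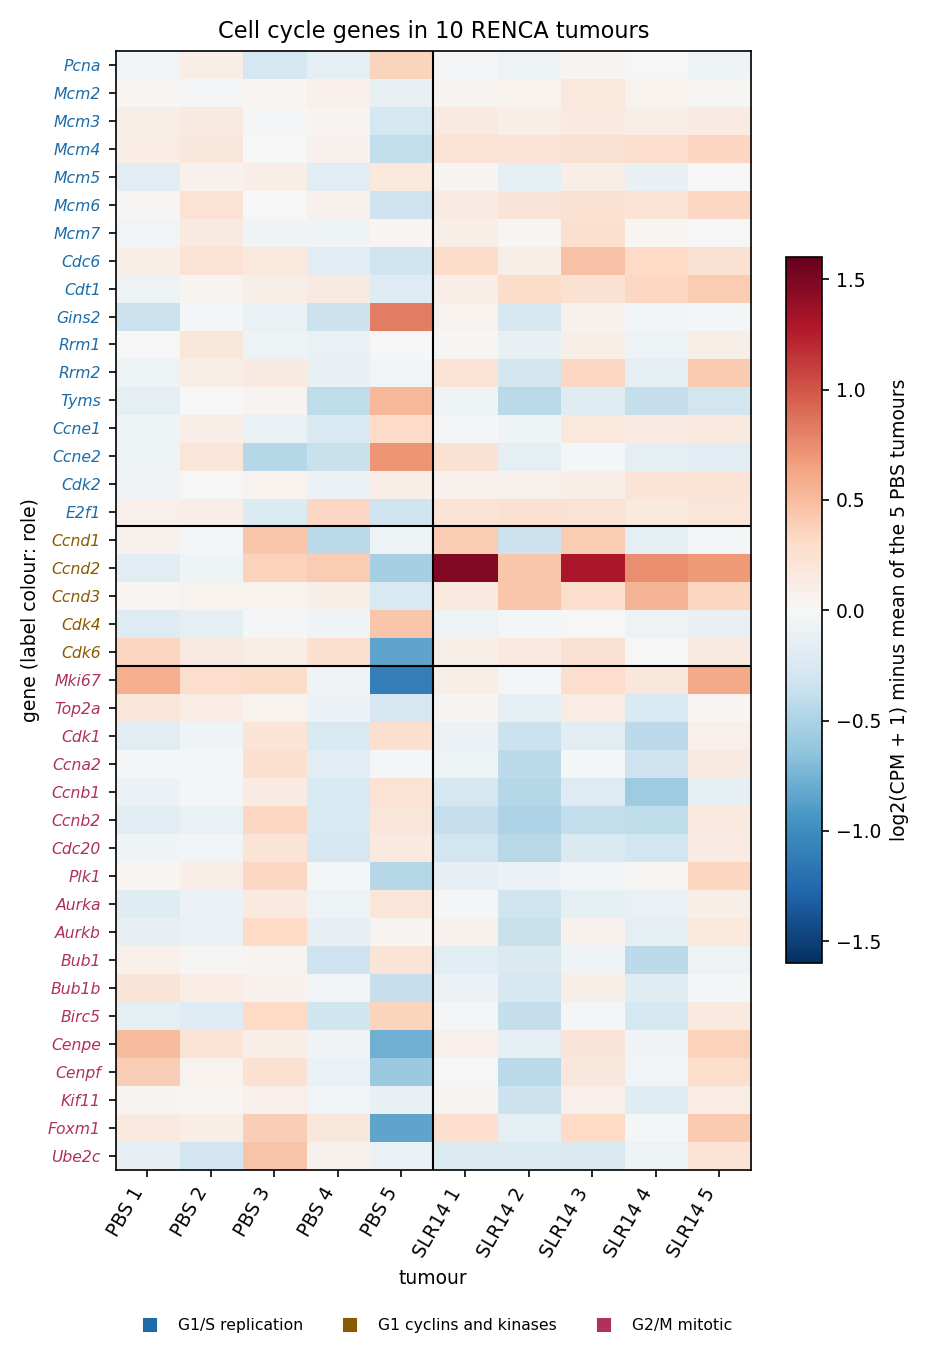
Log2(CPM + 1) of each of the 40 genes (rows, label colour by role) in each tumour (columns) minus the gene's mean over the 5 PBS tumours, from blue (lower) to red (higher). Ccnd2 is the most strongly coloured row in the SLR14 columns, and PBS 5 differs from PBS 1 to 4 in both directions, with Mki67 lowest and Gins2 highest.

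PBS 5 differed from the other controls in both directions. It was the lowest control for 18 of the 40 genes and the highest for 13. Against the median of the other controls, on the log2(CPM + 1) scale, Mki67 was at -1.39, Cdk6 at -1.05, Foxm1 at -1.01, Cenpe at -0.93 and Cenpf at -0.75. In the opposite direction Gins2 was at 1.04, Ccne2 at 0.93, Tyms at 0.60 and Cdk4 at 0.56. High and low genes came from all roles, so that mitotic genes such as Cdk1 (0.40) and Birc5 (0.54) were high while Plk1 (-0.53) was low. The deviations were related to transcript length. Over the 40 genes, Spearman's rho between the PBS 5 deviation and the length of the longest coding transcript in GENCODE M21 was -0.57, and over 8802 genes at least as abundant it was -0.67. The genes of 1 tumour share 1 library and are not independent replicates, so no p is given.

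The 20 longer of the 40 genes, of 3334 nucleotides or more, had a median deviation of -0.37 in PBS 5, and the 20 shorter ones, of 3163 or fewer, had 0.15. Each other tumour was set against its own group in the same way. The rho over abundant genes was 0.61 in PBS 1, lay between -0.15 and 0.21 in PBS 2, 3 and 4, and lay between -0.21 and 0.14 in SLR14 tumours. Over the 40 genes alone it was nearly as strong in SLR14 3 (0.55) and PBS 1 (0.51), and weaker in SLR14 4 (-0.41) and SLR14 2 (-0.31). A rank relation over the 40 was thus not particular to PBS 5. The medians of the longer and shorter genes lay farthest apart in PBS 5. They were 0.15 and 0.07 in SLR14 3, and 0.05 and -0.09 in PBS 1. The longest annotated transcript is not always the expressed one, and RNA integrity is not given in the sources used here. The part of RNA quality, or of the erythroid genes that were highest in the same control, was not tested. The fold changes of the 40 genes had a rho with length of 0.25 with all tumours and of -0.03 without PBS 5.

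**Figure D5:**
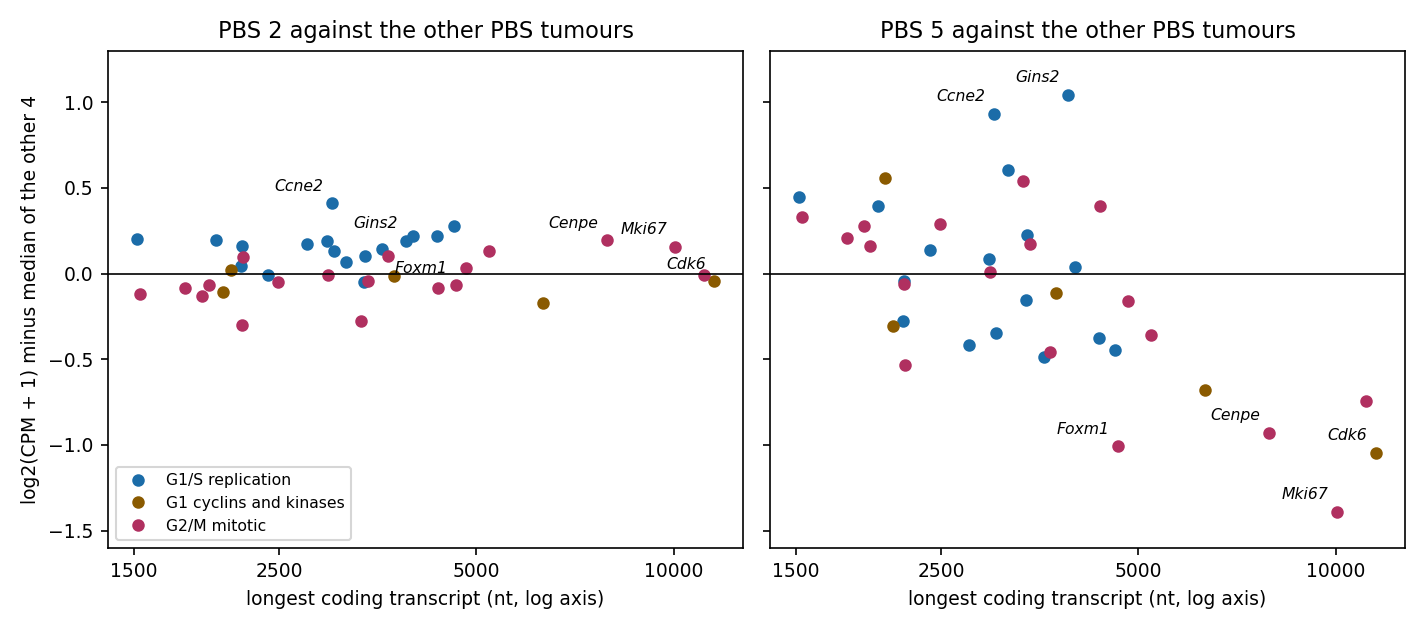
Deviation of each of the 40 genes from the median of the other 4 PBS tumours (vertical axis, log2(CPM + 1)) against the length of its longest coding transcript (horizontal axis, nucleotides, log axis), for PBS 2 as a comparison and for PBS 5. In PBS 5 the longest transcripts, such as Mki67 at -1.39, lie lowest, and in PBS 2 they do not.

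Across the 10 tumours, 4 pairs of genes were compared on log2(CPM + 1). Mki67 and Top2a varied together, with Pearson's r of 0.72 (permutation p = 0.00629, adjusted over the 4 pairs 0.0252) and Spearman's rho of 0.68 (permutation p = 0.0353, adjusted 0.141). Without PBS 5 and SLR14 5, the tumours farthest from the median of Mki67, r was 0.70 (permutation p = 0.0512). As deviations from the group means r was 0.79 (exact permutation within groups, p = 0.00972), and without PBS 5 alone r was 0.61. Both genes have long transcripts (10061 and 5221 nucleotides). PBS 5 was the lowest tumour for both, and PBS 1 was the highest for Top2a. These tumours had the strongest relation to transcript length over abundant genes (rho -0.67 in PBS 5 and 0.61 in PBS 1). The part of transcript length in this correlation was not tested. Mki67 and Mcm5, a mitotic and a replication gene, had r of -0.35 (permutation p = 0.355, adjusted 0.465) and rho of -0.09 (permutation p = 0.811, adjusted 0.811), and r turned to 0.17 without PBS 5 and SLR14 5. Pcna and Mcm5 had r of 0.41 (permutation p = 0.248, adjusted 0.465) and rho of 0.52 (permutation p = 0.134, adjusted 0.178), with r of 0.68 without PBS 3 and PBS 5 but 0.06 without PBS 5 alone. Ccnd1 and Mki67 had r of 0.28 (permutation p = 0.465, adjusted 0.465) and rho of 0.59 (permutation p = 0.0797, adjusted 0.159), with r of 0.21 without PBS 3 and SLR14 3. Each group alone holds 5 tumours, too few for a correlation.

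The rest of the pathway was read from 5 further lists of genes. Of 56 other mitotic genes, all tested, edgeR, DESeq2 and limma voom each called 0. An unadjusted edgeR p under 0.05 was found for 9, each lower in SLR14 tumours, against 10.8% of all tested genes in either direction. The median log2 fold change of the 56 was -0.13, with 43 negative and 13 positive values. Without PBS 5 it was -0.14, with 48 negative. The smallest p was that of Hmmr, a spindle protein, at 45.2, 46.5, 45.8, 36.5 and 43.7 CPM in PBS and at 34.0, 32.3, 35.4, 29.2 and 41.5 CPM in SLR14 tumours 1 to 5 (log2 fold change -0.33, SE 0.11, edgeR adjusted p = 0.239). SLR14 5 alone reached into the range of the controls. Of 45 other replication genes, all tested, 0 passed in any of the 3 tools, 2 had an unadjusted edgeR p under 0.05, and the median was -0.01, with 20 positive and 25 negative values. Without PBS 5 that median was 0.02, with 30 positive values. The smallest p was that of Pola2, a subunit of DNA polymerase alpha, at 49.8 ± 5.06 and 57.9 ± 4.30 CPM (SD, n = 5; edgeR adjusted p = 0.427).

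Of 7 CDK inhibitors listed, 6 were tested, each of the 3 tools called 0, and 0 were at an unadjusted edgeR p under 0.05. Cdkn1a, which encodes p21 and is induced by p53, was at 167, 148, 79.6, 225 and 118 CPM in PBS and at 128, 284, 144, 156 and 129.5 CPM in SLR14 tumours 1 to 5. The groups overlapped (log2 fold change 0.19, SE 0.27, edgeR adjusted p = 0.797). SLR14 2, the tumour with the lowest mitotic mean, had the highest value, and a relation of Cdkn1a to that mean was not tested. Cdkn2c, which encodes p18, had the smallest p of these (log2 fold change 0.13, SE 0.09, edgeR adjusted p = 0.620). Of 17 genes of the retinoblastoma, E2F and DREAM group, all tested, 0 passed in any of the 3 tools. An unadjusted edgeR p under 0.05 was found for 2 of the 17, against 10.8% of all tested genes. The smallest p there was that of E2f2, an activating E2F, at 68.4 ± 6.12 and 86.2 ± 15.2 CPM (SD, n = 5; log2 fold change 0.33, edgeR adjusted p = 0.319). Of 7 checkpoint kinases and CDC25 genes, 0 passed in any of the 3 tools and 0 had an unadjusted edgeR p under 0.05, and Atm had the smallest p (log2 fold change 0.25, SE 0.14, edgeR adjusted p = 0.527).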

How the data were processed

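RNA of 10 whole tumours, 5 per group, was sequenced after ribosomal depletion and oligo(dT) enrichment, per the labels' protocols. Trim Galore 0.6.7, STAR, DESeq2 1.36.0 and mm39 are named in the submitters' processing notes, while the sources used here name no counting program, strand setting or annotation. The authors deposited raw counts per gene and, as a second table, a normalized signal, which is the deposited counts divided by 1 factor per sample. No symbol is given for 74 genes (0.0295% of counts). Groups were taken from the titles, and the design text names 5 mice per group.

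Genes were filtered with filterByExpr (minimum count 10), which kept 15883, scaled by TMM and tested with edgeR 4.0.16's quasi-likelihood test (R 4.3.3, no covariate, Benjamini-Hochberg over all tested genes, threshold 0.05), a step tested on simulated data. The SE is the absolute log2 fold change divided by the square root of F. Alternatives used DESeq2 1.42.0, limma 3.58.1, other scalings and filters, a replicate block and left-out tumours. The normalized signal entered 1 alternative (log2 with a pseudocount of 1). Correlations used 100000 permutations. The 40 genes, the other lists and the tests were chosen with earlier results of these data known. All 40 could be named, and values by tumour are given for 14 chosen genes, for those called by edgeR, DESeq2 or limma voom, and for the 2 with the smallest p in each role, with Mcm4 added after its values were seen. From the other lists, genes called by edgeR, the gene with the smallest p, Cdkn1a and Cdh16 were named. Transcript lengths and promoter windows are from GRCm38, not the submitters' build, and were matched by identifier or symbol. Fibroblast and endothelial marker lists, with 6 genes each, gave 0 calls in edgeR, DESeq2 or limma voom, with 3 and 0 genes at an unadjusted edgeR p under 0.05. Of 10 renal and epithelial markers edgeR called 1, Epcam, which was lower, against 0.963% of all tested genes. DESeq2 called 2, Epcam and Cdh16, and limma voom called 1, Epcam. Cdh16 averaged 351 ± 36.0 CPM over the controls and 244 ± 40.9 CPM over the treated tumours (SD, n = 5), without overlap of the groups. Its log2 fold change was -0.52 (edgeR adjusted p = 0.0788, DESeq2 adjusted p = 0.00907). Of the 10 markers, 6 had positive and 4 negative fold changes. Of 6 erythroid and 11 muscle genes tested edgeR called 0, with 2 and 0 at an unadjusted p under 0.05. Of all tested genes, 10.8% were at an unadjusted edgeR p under 0.05.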

Additional observations from a re-analysis of the deposited data

Results flagged for a closer look

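The levels of each of the 40 genes, the role means and the summed marker lists were examined for a tumour far from the 4 others of its group, in 100 groups, and 9 values were found. Chance flags about 1 in 20 such groups. PBS 5 gave 5 of them. It was the highest control for Gins2 (109 CPM, others 48.0 to 59.9) and Cdk4 (571 CPM, others 361 to 412) and the lowest for Ccnd3 (86.5 CPM, others 105 to 110.1) and Cdk6 (106 CPM, others 207 to 243). SLR14 5 was the highest treated tumour for Ccnb2 (66.7 CPM, others 42.2 to 46.4) and Plk1 (69.6 CPM, others 50.0 to 55.4), and SLR14 3 for Mcm2 (314 CPM, others 283 to 291). The summed erythroid markers were highest in PBS 5 (173 CPM, others 54.3 to 63.9) and, among treated tumours, in SLR14 4 (98.3 CPM, others 20.9 to 43.2).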

How the results depend on the processing

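The medians of the replication and mitotic genes and their difference moved by less than the spread between tumours under all 20 alternatives. That spread (pooled SD 0.0740 for G1/S, 0.168 for G2/M and 0.163 for the difference) was about as large as the values themselves (0.08, -0.11 and -0.19). A value could thus fall close to 0 and still move by less than it. Leaving out each tumour gave 0.04 to 0.12 for the G1/S median, -0.14 to -0.03 for the G2/M median and -0.23 to -0.11 for the difference, with the values nearest to 0 of the last pair both found without PBS 3. Of the 40 genes, DESeq2 called 2 (Ccnd2 and Ccnd3), limma voom with sample weights 1 (Ccnd2), edgeR without PBS 5 and SLR14 2 also 1 (Ccnd2), and leaving out each tumour 0 to 1, the 1 being Ccnd2 without SLR14 2. Over all genes, edgeR called 153, DESeq2 407, sample weights 349, and edgeR without both tumours 215. Leaving out each tumour gave 69 to 194, and the count dropped below 100 when the tumour left out was PBS 1 (69), PBS 3 (78), SLR14 1 (77), SLR14 3 (75) or SLR14 4 (89). Replicate numbers did not pair the tumours (r of same-numbered tumours -0.25 to 0.14, with 1 of 10 matching its own number best), and a fit with the replicate block called 0 of the 40 and 78 genes in all.

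Of 800 single-gene values under the alternatives, 59 changed sign, in 18 genes, none of them past the threshold; in 22 genes the sign held. Upper-quartile scaling gave -0.033 for Rrm1 and -0.021 for Plk1, a 1 CPM filter -0.0045 for Rrm1, and limma on the deposited normalized values 0.0065 for Cenpf. Sample weights gave 0.014 for Pcna, 0.040 for Mcm5, 0.16 for Gins2, -0.020 for Rrm1, 0.063 for Ccne2, 0.058 for Cdk4, -0.062 for Cdk6, -0.055 for Mki67, -0.086 for Plk1, 0.045 for Aurkb, 0.044 for Birc5 and -0.11 for Cenpe. Without PBS 5 and SLR14 2 the values were 0.062 for Pcna, 0.045 for Mcm5, 0.21 for Gins2, 0.13 for Ccne2, 0.032 for Cdk4, -0.10 for Cdk6, -0.069 for Plk1, 0.037 for Aurkb, 0.036 for Birc5 and -0.058 for Cenpe. Leaving out each tumour gave -0.11 to 0.050 for Pcna, -0.066 to 0.017 for Mcm5, -0.19 to 0.16 for Gins2, -0.023 to 0.050 for Rrm1, -0.22 to 0.11 for Ccne2, -0.033 to 0.19 for Ccnd1, -0.13 to 0.046 for Cdk4, -0.094 to 0.15 for Cdk6, -0.057 to 0.29 for Mki67, -0.11 to 0.0094 for Top2a, -0.095 to 0.10 for Plk1, -0.094 to 0.058 for Aurkb, -0.11 to 0.18 for Cenpe, -0.15 to 0.088 for Cenpf, -0.093 to 0.020 for Kif11, -0.032 to 0.23 for Foxm1 and -0.21 to 0.016 for Ube2c. The cause was not tested.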
